A study of Mus musculus with 180 samples.

Results

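RNA bound to the membrane-attached ribosomes of Camk2a-expressing neurons was compared between mice trained by contextual fear conditioning (CFC) and untrained mice (NoCFC). The members are the libraries whose titles hold HA_PELL, 30 of the 180 libraries of the series and 1 per mouse. All mice were male and carried the Camk2a-cre transgene of line T29-1Stl and the Rpl22tm1.1Psam allele, which Cre converts to an HA-tagged ribosomal protein; trained and untrained mice alike had both. The groups were NoCFC with sleep allowed (8 mice), NoCFC with sleep deprivation, SD (7 mice), CFC with sleep (8 mice) and CFC with SD (7 mice). The labels give neither the mice's age nor the length of the deprivation. The tissue is labelled as brain, and the paper that the labels cite names hippocampal neurons. The CFC effect is the mean of the 2 CFC groups minus the mean of the 2 NoCFC groups, as a log2 fold change.

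Contextual fear conditioning pairs a place with a foot shock, and a single session leaves a memory that depends on the hippocampus and that sleep loss soon afterwards can impair. In the RiboTag method an antibody against HA pulls ribosomes, with the RNA they carry, from the cells in which Cre was active. Here the homogenate was first split by centrifugation. Ribosomes held in the pellet include those on the endoplasmic reticulum (ER), the organelle where secreted and membrane proteins are made and folded, and those in the supernatant are taken as cytosolic. RNA for receptors, channels, adhesion proteins, secreted proteins and the ER's own enzymes therefore belongs on membrane-bound ribosomes. The pellet libraries also held RNA for cytosolic proteins, such as glycolytic enzymes.

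Marker genes were checked first. Summed CPM, counts scaled to a common library size, had a median of 14180 over 17 excitatory-neuron genes, 134% of the median in the uncaptured RNA of the same fraction (membrane Input), and 192% over 11 CA1 pyramidal genes. Glial RNA was reduced, not absent, and no marker had a median of 0. Whether the glial RNA was bound to tagged ribosomes or carried along in the pellet was not tested. The 23 astrocyte genes summed to a median of 6580 CPM (range 4461 to 11180), 31.6% of membrane Input, against 576 CPM in the cytosolic Camk2a capture. Oligodendrocyte genes stood at 28.3% and microglial genes at 23.7% of membrane Input. Inhibitory-neuron genes were less reduced, with a median of 2879 CPM, 77.6% of membrane Input, against 839 CPM in the cytosolic capture. Genes of CA3 and CA2 stood at 102% and choroid plexus genes at 95.8% of membrane Input. Library totals ranged from 15.12 to 26.95 M counts (mean 18.8 ± 2.61, SD, n = 30). In bulk libraries, more cells of a type and more RNA per cell cannot be told apart.

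The order of the mouse numbers in the titles is the main limit. Mice 1 to 11 were all NoCFC and mice 12 to 22 all CFC, so that in these 22 mice training and number run cannot be told apart. Only mice 23 to 30 held both, with 4 NoCFC mice (23, 24, 27 and 28) and 4 CFC mice (25, 26, 29 and 30). Library measures differed between the runs too. The summed level of 32 listed long noncoding RNAs was 903 to 1684 CPM in mice 1 to 11, 611 to 775 in the NoCFC mice of 23 to 30, and 544 to 737 in all 15 CFC mice. Genes with at least 1 count numbered 21903 to 26058 in mice 1 to 11, 20565 to 23206 in the other NoCFC mice and 20131 to 21927 in CFC mice. Astrocyte RNA, scaled by TMM (trimmed mean of M-values), had a median of 6287 CPM in NoCFC mice (4700 to 7282) and 7591 CPM in CFC mice (4722 to 10514). The part of these measures in the results below was not tested, except where a model with a glial score is given.

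**Figure D1:**
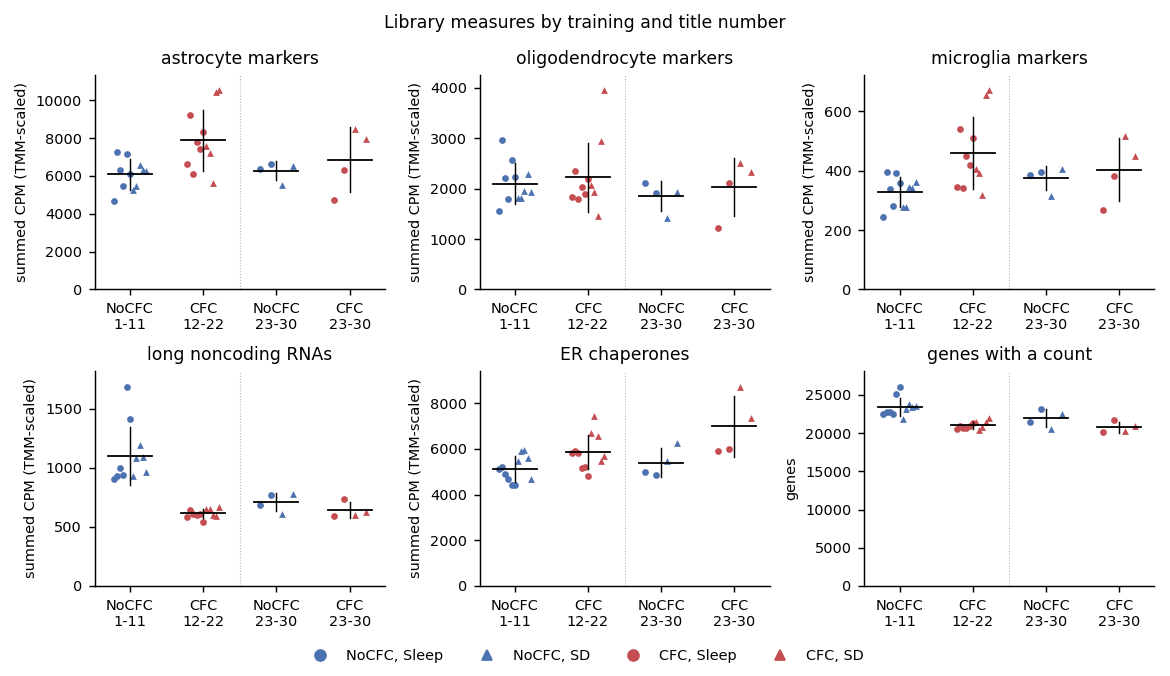
Library measures in each of the 30 membrane Camk2a libraries, by training and run of mouse numbers: summed CPM of astrocyte, oligodendrocyte, microglial, long noncoding and ER chaperone genes, and the number of genes with a count. Each point is 1 mouse (circles Sleep, triangles SD); long noncoding RNA was 903 CPM or more in every one of mice 1 to 11 and 775 CPM or less in every other mouse.

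Over all 30 mice, libraries of trained mice had more RNA for many listed ER chaperone, lysosomal and glial genes. The counts were 19 of 25 ER, 13 of 28 lysosomal and 15 of 23 astrocyte genes. Less RNA was seen for many large cytoskeletal, proteasome and long noncoding genes (18 of 32, 17 of 31 and 11 of 27). Of 14968 genes tested, 1469 rose (9.81%) and 1073 fell (7.17%) at an adjusted p under 0.05 in edgeR's quasi-likelihood test. The 22 mice in which training and number run coincide gave 1408 higher (9.31%) and 1032 lower (6.82%) of 15131 genes, and mice 23 to 30 alone gave 2 higher (0.0134%) and 0 lower (0%) of 14879, where 1445 genes had an unadjusted p under 0.05. DESeq2 on the same 8 libraries called 153 higher (3.64% of the 4206 genes to which it gave an adjusted p) and 4 lower (0.0951%).

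The difference between number runs was also measured directly where training was the same. Among NoCFC mice, mice 1 to 11 differed from mice 23, 24, 27 and 28 in 463 genes that were higher (3.22%) and 308 that were lower (2.14%) of 14376. Among CFC mice, mice 12 to 22 differed from mice 25, 26, 29 and 30 in 0 of 14319 genes by edgeR's test, with 720 at an unadjusted p under 0.05.

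The direction of change was compared between the 2 number ranges, which share no mouse. Of 1406 genes called higher in mice 1 to 22 and tested in both, 1101 (78.3%) had a CFC effect above 0 in mice 23 to 30, against 47.8% of all genes, and their median there was 0.14. Of 999 genes called lower, 750 (75.1%) were below 0, against 52.2% of all genes, with a median of -0.07. Pearson's r between the ranges was 0.185 over all 14699 genes tested in both, of which 61.5% had the same sign, and 0.429 over the 9414 with a mean log2 CPM of 3 or more. It is a description over genes, which are not independent, and the 2 ranges have separate controls.

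**Figure D2:**
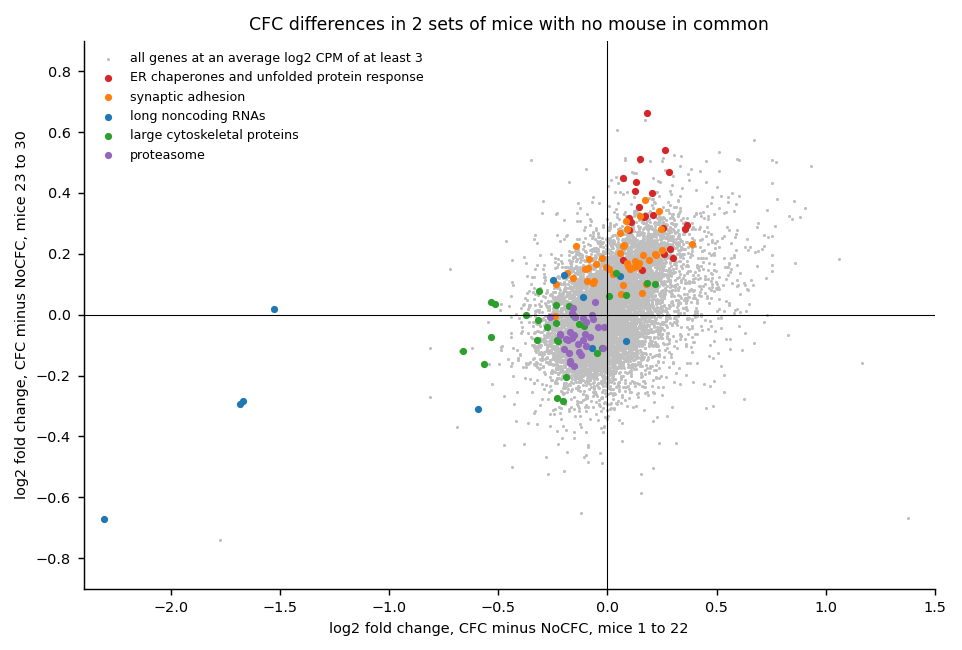
CFC effect (log2 fold change, CFC minus NoCFC) of 9414 genes in mice 1 to 22 (horizontal) and in mice 23 to 30 (vertical), 1 point per gene, with members of 5 lists in colour. ER chaperone and synaptic adhesion genes lie above 0 on both axes in most cases. Most long noncoding and large cytoskeletal genes lie below 0 on the horizontal axis, a few of them far below, and nearer 0 on the vertical one.

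Of 25 listed ER chaperones and quality-control factors, 19 rose over all 30 mice. These proteins bind, oxidise and inspect new chains in the ER, and the unfolded protein response raises their genes through a promoter element, the ER stress response element, which is shown here because most of the members rose. It reads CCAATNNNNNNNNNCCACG on 1 strand and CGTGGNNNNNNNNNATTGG on the other. In RefSeq promoter windows of GRCm38.p6, from 250 bases before to 50 after a gene's start, it lay in 9 of the 21 listed genes with a window (42.9%), against 39 of all 32851 windows (0.119%). Beyond the list, 7 tested genes held it, of which 2 rose and 1 fell, with a median CFC effect of 0.02. A match is a description of these letters and not evidence of binding. Genes of the list outside these 9 rose too, among them P4hb, Hyou1, Pdia4 and Sel1l. Whether listed genes with the element rose more often than those without was not tested. The stretches of 5 of the 9 genes, all called higher, are printed; Dnajc3, Syvn1, Creld2 and Derl3 hold it too, and the last pair did not pass the test. Below, capitals mark the outer parts of the element, and each stretch is written 5′ to 3′ on the gene's strand.
Hspa5, chr2:34772013-34772055, plus strand: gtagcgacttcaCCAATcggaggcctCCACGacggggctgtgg
Hsp90b1, chr10:86705626-86705668, minus strand: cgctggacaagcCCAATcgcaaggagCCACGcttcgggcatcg
Hsp90b1, chr10:86705521-86705563, minus strand: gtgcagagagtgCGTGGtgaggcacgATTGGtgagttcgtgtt
Calr, chr8:84847063-84847105, minus strand: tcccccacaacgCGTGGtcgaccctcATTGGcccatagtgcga
Canx, chr11:50325788-50325830, minus strand: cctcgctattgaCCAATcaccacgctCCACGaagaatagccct
Pdia6, chr12:17266479-17266521, plus strand: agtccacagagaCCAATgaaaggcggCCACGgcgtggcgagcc

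Of the 25 ER genes, all tested, 19 rose and 0 fell over all 30 mice, beside 9.81% and 7.17% of all genes. Their median CFC effect was 0.21, beside -0.01 for all genes. The stretch printed above for Hspa5 lies inside the gene's GENCODE span, since its window followed a RefSeq start that lies further in. Hspa5 encodes BiP, the main ER chaperone (GENCODE vM21, GRCm38, chr2:34771970-34777547). Its level was 496, 583 and 983 CPM (lowest, median, highest) in NoCFC mice and 567, 726 and 1571 CPM in CFC mice, and the groups overlapped. The CFC effect was 0.35 ± 0.08 (SE, adjusted p = 0.0028), and 14 of 15 CFC mice were above the NoCFC median of their own sleep arm. P4hb, a protein disulfide isomerase (chr11:120560298-120573253), was at 147, 174 and 201 CPM in NoCFC mice and at 180, 222 and 271 CPM in CFC mice. It rose by 0.33 ± 0.05 (adjusted p = 3.9e-05), with 15 of 15 CFC mice above their arm's NoCFC median. In each arm most NoCFC mice were from mice 1 to 11, so that median largely reflects the earlier run. The NoCFC mice of 23 to 30 had P4hb at 187.5 to 201.2 CPM, also above the median of all NoCFC mice. Here and below, such tallies hold any difference between runs, and are descriptions of the values and no further support. Among the other risers were Hyou1, a BiP co-factor, at 0.34 ± 0.06, Pdia4 at 0.34 ± 0.07, the lectin chaperones Canx and Calr at 0.26 ± 0.05 and 0.21 ± 0.05, and Sel1l, a scaffold for ER-associated degradation, at 0.21 ± 0.05. Hsp90b1, the ER member of the HSP90 family, rose by 0.21 ± 0.06 (adjusted p = 0.02). Of the sensors and their factors, Atf6 (0.15) and Xbp1 (0.26) rose. Ern1, Creld2, Manf, Dnajb9, Derl3 and Selenos did not pass, and Creld2 was at 0.18 ± 0.08.

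Within mice 23 to 30 none of the 25 ER genes passed edgeR's test, but all 25 had a CFC effect above 0, where 7033 of 14724 genes did, and their median was 0.32. Hspa5 was at 562, 530.8, 706 and 983 CPM in NoCFC mice 23, 24, 27 and 28, and at 728, 707, 1571 and 1142 CPM in CFC mice 25, 26, 29 and 30. Within each sleep arm both CFC mice were above both NoCFC mice (0.54 ± 0.11, adjusted p = 0.14). P4hb was at 201, 188, 196 and 201 CPM against 225, 222, 271 and 238 CPM, with no overlap. Hsp90b1 was at 308, 315, 335 and 417 CPM against 377, 429, 549 and 507 CPM (0.44 ± 0.08, adjusted p = 0.14). Calr, Hyou1 and Sel1l did not overlap between these groups either. The share of all genes without overlap between these 4 and 4 mice is not given here. Most genes so described were also picked by a test over 30 mice that includes these 8. Here and below, a lack of overlap is therefore a description of the values and no further support. DESeq2 called 15 of the 25 higher in these 8 mice, beside 3.64% of the genes to which it gave an adjusted p. Mice 1 to 22 had 9 of the list higher and 0 lower, beside 9.31% and 6.82% of all genes, with a median of 0.17. Among NoCFC mice 4 of the 25 were lower in mice 1 to 11 than in the later mice, P4hb (-0.22) and Hyou1 (-0.24) among them. In that comparison 0 were higher, beside 2.14% lower and 3.22% higher of all genes.

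On the cytosolic ribosomes of the same neurons 0 of 25 ER genes were called over 30 mice, where 12 genes of 15779 rose (0.0761%) and 2 fell (0.0127%). The list still had 24 of 25 above 0 there, with a median of 0.09 over 30 mice and 0.00 in mice 23 to 30. Hspa5 was at 0.20 ± 0.09 and P4hb at 0.09 ± 0.06 in that fraction. In membrane Input 13 of 25 rose and 0 fell, beside 2.57% higher and 3.33% lower of 16128 genes, and the list's median in mice 23 to 30 was 0.27. Hspa5 rose there by 0.32 ± 0.08 and P4hb by 0.19 ± 0.04.

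**Figure D3:**
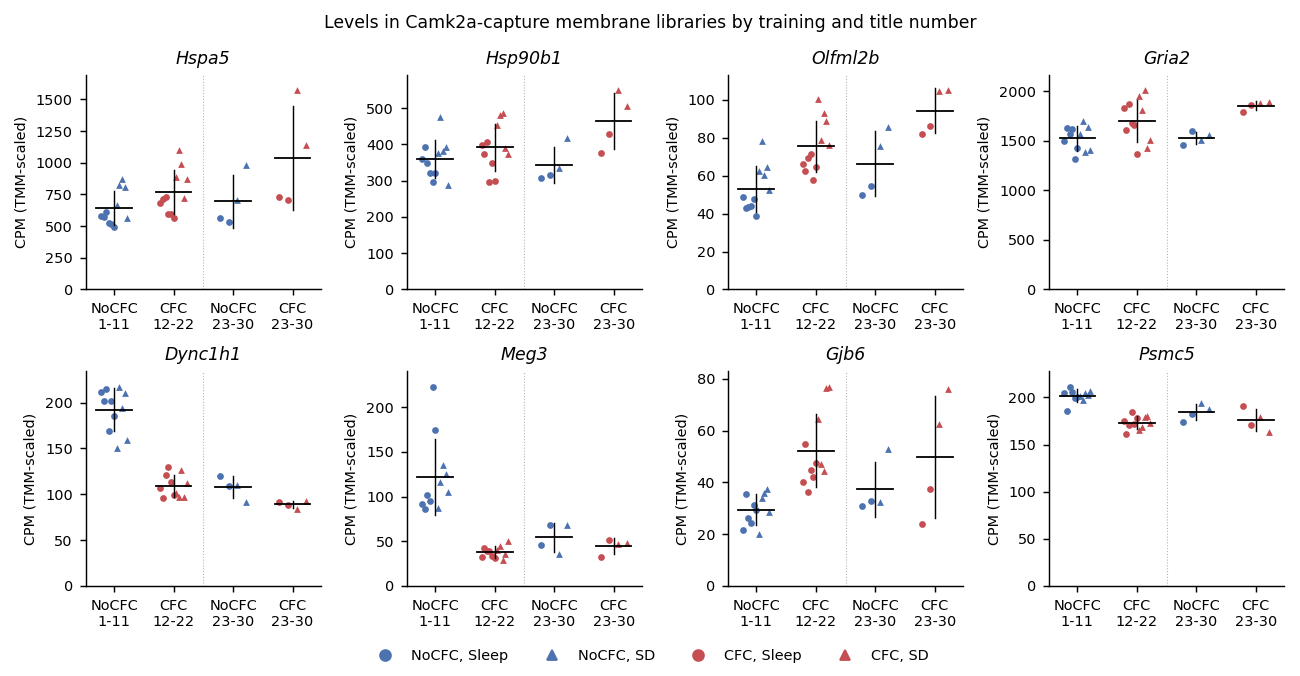
CPM of 8 genes in each mouse, in mice 1 to 11 (NoCFC), 12 to 22 (CFC) and the NoCFC and CFC mice of 23 to 30; circles are Sleep mice, triangles SD mice, and lines the mean ± SD. Hspa5 and Olfml2b are higher in CFC mice in both number ranges, whereas Dync1h1 and Meg3 are high only in mice 1 to 11.

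Genes that feed chains into the ER and move them on were measured as 43 translocon and secretory factors. Of these 13 rose and 2 fell, with a median of 0.05, and in mice 23 to 30, where 0 passed, 36 of 43 were above 0 with a median of 0.16. Over all genes 9.81% rose and 7.17% fell. In the highest of 5 bins by ratio of membrane to cytosolic level in Input, 934 of 2934 genes rose and 40 fell. Beside that bin the share higher was no larger in this list or in the glutamate receptor, adhesion and secreted lists below. It was larger in the GABA receptor, pump and lysosomal lists. None of these differences was tested. Sec61a1, the channel subunit of the translocon, was at 55.0, 62.9 and 83.7 CPM in NoCFC mice and 71.3, 80.3 and 101 CPM in CFC mice. It rose by 0.32 ± 0.06 (adjusted p = 0.00051), and 15 of 15 CFC mice exceeded their arm's NoCFC median. The later mice had it at 77.5, 83.7, 75.2 and 82.2 CPM in NoCFC mice against 92.9, 85.8, 101 and 95.7 CPM in CFC mice, with no overlap. Spcs3, a subunit of signal peptidase, rose by 0.36 ± 0.06. Ssr3, a translocon-associated protein, and Stt3b, a catalytic subunit of oligosaccharyltransferase, rose by 0.28 ± 0.06 and 0.25 ± 0.05. Sec61a1 and Spcs3 were also lower in mice 1 to 11 than in the NoCFC mice of 23 to 30, by -0.37 and -0.25.

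Neurotransmitter receptors rose in part. Of 33 glutamate receptor genes tested 7 rose and 0 fell (median 0.07), and of 14 GABA receptor genes 6 rose and 0 fell (median 0.13). Beside these stand 9.81% higher and 7.17% lower of all genes, and 934 of 2934 higher in the bin with the highest membrane ratio. The GABA count was 3 without mouse 3, 5, 6, 14, 18 or 26. Gria2, the AMPA receptor subunit that sets calcium permeability, was at 1315, 1553 and 1697 CPM in NoCFC mice and 1368, 1813 and 2007 CPM in CFC mice (0.19 ± 0.05, adjusted p = 0.0075). For mice 23 to 30 it was at 1459, 1595, 1507 and 1553 CPM against 1792, 1859, 1882 and 1888 CPM, so that each CFC mouse was above each NoCFC mouse (0.28 ± 0.07, adjusted p = 0.17). Gria1, another AMPA subunit, rose by 0.16 ± 0.05, the obligatory NMDA subunit Grin1 by 0.20 ± 0.06, and the GABA-A subunit Gabrb2 by 0.22 ± 0.07. The GABA-B subunit Gabbr2 rose by 0.14 ± 0.05. The 2 of these 13 called receptor genes with the largest rise, Grin2c (0.49 ± 0.13) and Gabrg1 (0.41 ± 0.10), are known in astrocytes as well as neurons. No receptor gene passed edgeR's test in mice 23 to 30, where 32 of 33 glutamate and 14 of 14 GABA receptor genes were above 0, with medians of 0.16 and 0.18.

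Among 43 synaptic adhesion genes 11 rose and 0 fell (median 0.11), beside 9.81% higher and 7.17% lower of all genes. The bin with the highest membrane ratio had 934 of 2934 higher. In mice 23 to 30, 42 of the 43 adhesion genes were above 0 (median 0.17), none of them called. Nrcam, an axonal and synaptic adhesion molecule, was at 273, 336 and 383 CPM in NoCFC mice and 331, 413 and 443 CPM in CFC mice. It rose by 0.25 ± 0.05 (adjusted p = 0.00045). Its level in mice 23 to 30 was 336, 359, 318 and 366 CPM against 398, 443, 413 and 420.0 CPM, with no overlap. Cntn1, a contactin of axons, and Slitrk5, a synapse organiser, rose by 0.21 ± 0.05 and 0.23 ± 0.05. L1cam, a relative of Nrcam, rose by 0.26 ± 0.05.

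Ion pumps and exchangers were partly higher. Of 21 pumps and exchangers 8 rose and 0 fell (median 0.11), and 20 were above 0 in mice 23 to 30 (median 0.18). Atp1b1, the beta subunit of the sodium pump, was at 4473, 4450.0, 4500.0 and 4276 CPM in the NoCFC mice of 23 to 30 and at 5204, 5112, 5246 and 4995 CPM in their CFC mice. Atp1b1 rose by 0.18 ± 0.05 over 30 mice (adjusted p = 0.013), and Slc12a5, the neuronal chloride exporter KCC2, rose by 0.21 ± 0.05. Channel genes were called higher about as often as all genes (9.81%): 3 of 32 potassium channel genes, among them the calcium-gated Kcnn2 at 0.24 ± 0.05, and 3 of 25 sodium and calcium channel genes, with 1 lower. Scn3b, a sodium channel beta subunit, rose by 0.32 ± 0.06, and its levels in mice 23 to 30 did not overlap.

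**Figure D4:**
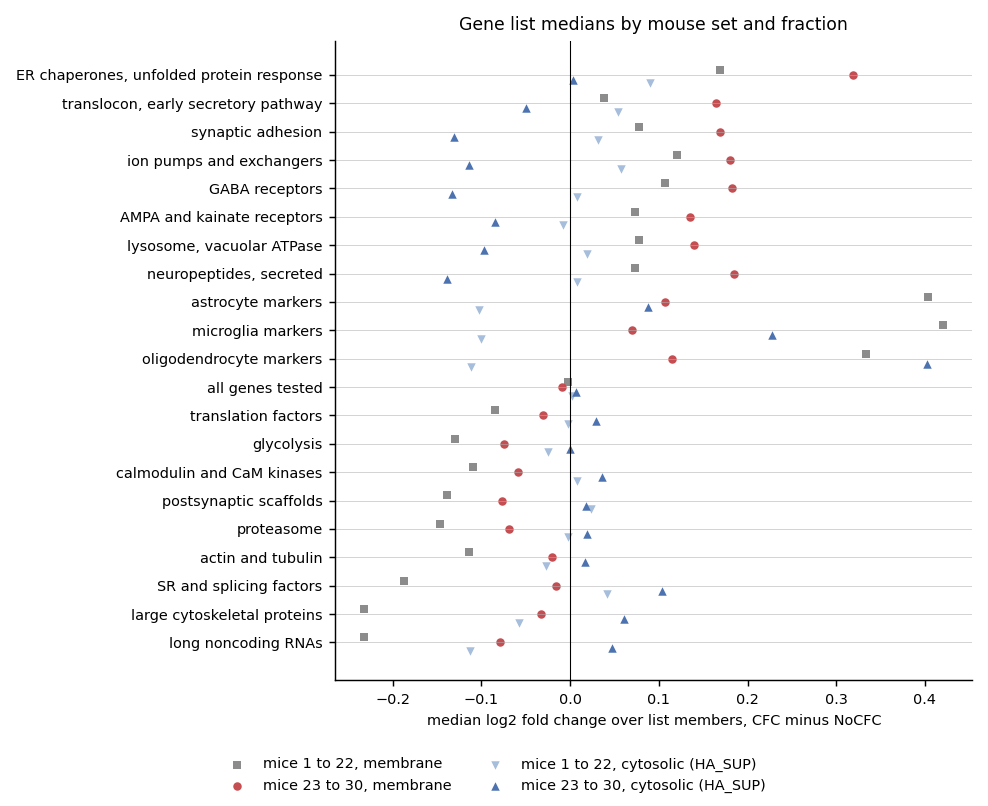
Median CFC effect (log2) of 21 gene lists in membrane Camk2a libraries of mice 1 to 22 and of mice 23 to 30, and in cytosolic Camk2a libraries of the same 2 sets. ER chaperones stand at 0.17 and 0.32 in the membrane libraries and at 0.09 and 0.00 in the cytosolic ones, while the long noncoding list goes from -0.23 to -0.08 between the number ranges.

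Lysosomal and secreted proteins, which also pass through the ER, were partly higher, where 9.81% of all genes rose and 7.17% fell. The bin with the highest membrane ratio had 934 of 2934 higher. Of 28 lysosome and vacuolar ATPase genes 13 rose and 1 fell (median 0.10), and 20 were above 0 in mice 23 to 30 (median 0.14). Lamp1, a lysosomal membrane protein, rose by 0.28 ± 0.05, the protease Ctsd by 0.21 ± 0.05 and the saposin precursor Psap by 0.24 ± 0.05. Psap was at 2843, 2866, 2708 and 2664 CPM in the NoCFC mice of 23 to 30 and at 3318, 3287, 3380.0 and 3176 CPM in their CFC mice, with no overlap. Among 31 genes of neuropeptides and other secreted proteins 5 rose and 0 fell (median 0.11; 8 without mouse 20 or 22), and 28 were above 0 in mice 23 to 30 (median 0.18). Cpe, which trims neuropeptide precursors, rose by 0.19 ± 0.04 and was above its arm's NoCFC median in 15 of 15 CFC mice. Nptx1, a secreted pentraxin that gathers AMPA receptors, rose by 0.32 ± 0.08, but mice 1 to 11 were also below the NoCFC mice of 23 to 30 by -0.39.

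The 2 genes that passed edgeR's test in mice 23 to 30 alone were Olfml2b and Gpr161. Olfml2b, a secreted olfactomedin-like protein (chr1:170644532-170682789), was at 49.8, 54.5, 75.4 and 85.6 CPM in NoCFC mice and at 81.9, 86.0, 105 and 105 CPM in CFC mice. The groups overlapped across sleep arms but not within them (0.54 ± 0.08, adjusted p = 0.033). Over 30 mice it rose by 0.51 ± 0.07 (adjusted p = 7.9e-06), and 15 of 15 CFC mice were above their arm's NoCFC median. Among NoCFC mice it was lower in mice 1 to 11 than in the later ones, by -0.28 (adjusted p = 0.036). Gpr161, a receptor of the primary cilium (chr1:165295789-165326745), was at 67.0, 71.5, 87.4 and 83.1 CPM against 94.6, 92.5, 124 and 133 CPM, with no overlap (0.51 ± 0.08, adjusted p = 0.033). It rose by 0.32 ± 0.06 over 30 mice. Leaving out 1 of these 8 mice moved the number of genes called higher to between 0 and 6, the latter without mouse 30. Next in order of p were Aph1b, a gamma-secretase subunit, at 0.51 ± 0.09, Hsp90b1, Spink8, a secreted protease inhibitor, at 0.47 ± 0.09, and Cd34, a sialomucin, at 0.47 ± 0.09, with adjusted p from 0.13 to 0.14. The 6 lowest by p were Srsf5 (-0.52 ± 0.10), Casp9 (-0.59 ± 0.13), Hap1 (-0.32 ± 0.07), Ski (-0.31 ± 0.07), Asb13 (-0.37 ± 0.09) and Shtn1 (-0.65 ± 0.17), and none passed. Of these Srsf5 and Hap1 fell over all 30 mice (-0.34 ± 0.07 and -0.19 ± 0.05).

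Gpr161 is 1 of 11 listed CA1 pyramidal genes, of which 4 rose and 1 fell (median 0.18), beside 9.81% and 7.17% of all genes. Man1a and Fibcd1 rose by 0.32 ± 0.07 and 0.28 ± 0.08, and Nov by 0.18. Wfs1, which encodes an ER membrane protein, was at 0.28 ± 0.13 and did not pass. Of the 11, 8 were above 0 in mice 23 to 30 (median 0.28). Excitatory markers as a whole had a median of -0.05 with 2 higher and 5 lower of 17, among them Tbr1 at -0.17 ± 0.05, and Slc17a7, the vesicular glutamate transporter, was at 0.10 ± 0.05 and did not pass.

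Several lists of cytosolic proteins, which free ribosomes make, had more genes lower than the 7.17% of all genes, though ribosomal protein genes did not. Of 31 proteasome genes 17 fell and 0 rose (median -0.13), and in mice 23 to 30 there were 4 above 0 (median -0.07), with 0 called. Psmc5, an ATPase of the proteasome cap (chr11:106256154-106263120), was at 174, 201 and 211 CPM in NoCFC mice and 161, 173 and 191 CPM in CFC mice. It fell by 0.18 ± 0.04 (adjusted p = 0.00072), and no CFC mouse was above its arm's NoCFC median. Psmc5 in mice 23 to 30 was at 174, 183, 194 and 187 CPM against 191, 171, 179 and 163 CPM, and the groups overlapped. Psma4, a core subunit, fell by 0.17 ± 0.04.

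All genes, of which 7.17% fell and 9.81% rose, are the background for the lists here. Of 17 glycolytic genes 8 fell, Pgam1 by 0.23 ± 0.05 and Gapdh by 0.13 ± 0.04, and 1 rose, the astrocyte-enriched Aldoc. The count of 8 dropped to 3 without mouse 30, to 4 without mouse 11 and to 5 without mouse 5 or 13. Of 34 postsynaptic scaffold genes 9 fell and 0 rose (median -0.12). Dlg4, which encodes PSD-95, fell by 0.21 ± 0.05. Of 48 translation factors 14 fell and 1 rose, with Eif3d at -0.26 ± 0.05 and the elongation factor Eef2 at -0.21 ± 0.05. Without any 1 of 13 mice that count was 7 to 9, the lowest without mouse 11. Camk2a itself, whose RNA is also carried into dendrites, fell by 0.18 ± 0.05 and Rpl22, the tagged gene, was at 0.01 ± 0.05. Of 79 ribosomal protein genes 3 fell, a share below that of all genes, and Rps6 was at -0.10 ± 0.05. In 77 nuclear genes of oxidative phosphorylation 13 fell. Medians in mice 23 to 30 were -0.08 for glycolysis and for the scaffold, -0.03 for translation factors, 0.02 for ribosomal proteins and 0.01 for oxidative phosphorylation, with 0 called in each.

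Large cytoskeletal genes and long noncoding RNAs had the steepest falls among the 12 lower genes named by size, with Snhg11, Meg3 and Dync1h1 first, and here the number runs differed too. Dync1h1, the heavy chain of cytoplasmic dynein (chr12:110601452-110666945), was at 151 to 217 CPM in mice 1 to 11 and at 96.2 to 130 CPM in mice 12 to 22. In the NoCFC mice of 23 to 30 it was at 120.3, 109, 111 and 91.6 CPM, and in their CFC mice at 91.8, 88.3, 84.1 and 92.4 CPM. It fell over 30 mice (-0.71 ± 0.11, adjusted p = 0.00019), but within NoCFC mice 1 to 11 exceeded the others by 0.83 (adjusted p = 3.3e-06), and in mice 23 to 30 the effect was -0.27 ± 0.08 (adjusted p = 0.26). Of 32 large cytoskeletal genes 18 fell and 2 rose over 30 mice (median -0.20), beside 7.17% lower and 9.81% higher of all genes. The median of this list in mice 23 to 30 was -0.03 with 0 called. Among NoCFC mice 18 of the 32 were higher in mice 1 to 11 than in the later mice, beside 3.22% of all genes. The median there was 0.27. The spectrins Sptb, Sptbn1 and Sptan1, which line the cell membrane, had CFC effects of -0.55 ± 0.10, -0.49 ± 0.10 and -0.44 ± 0.09, and run differences within NoCFC of 0.76, 0.67 and 0.68.

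Meg3, a noncoding RNA of an imprinted locus (chr12:109541001-109571726), was at 86.3 to 223 CPM in mice 1 to 11, 28.9 to 49.9 CPM in mice 12 to 22, 36.2 to 68.4 CPM in the NoCFC mice of 23 to 30 and 32.2 to 51.8 CPM in their CFC mice. It fell by 1.38 ± 0.19 over 30 mice (adjusted p = 6.6e-05) and was at -0.28 ± 0.24 in mice 23 to 30. Snhg11, a small nucleolar RNA host gene, fell by 1.38 ± 0.18 and Kcnq1ot1 by 1.86 ± 0.21. Malat1, a nuclear RNA, fell by 1.2 ± 0.22 but was at 0.02 ± 0.27 in mice 23 to 30. In all 11 of 27 long noncoding genes fell, beside 7.17% of all genes. In mice 23 to 30 the median of this list was -0.08, with 13 of 27 above 0. Of 129 named genes checked, 41 share exon positions with other genes, and the strand used in counting is not given in the sources used here, so these counts may hold reads of a neighbour. Those named here are Kcnq1ot1, Meg3, Malat1, Snhg11, Dync1h1, Sptb, Sptbn1, Hsp90b1, Pdia4, Sec61a1, Spcs3, Gria2, Grin1, Grin2c, Atp1b1, Kcnn2, L1cam, Lamp1, Ctsd, Psma4, Gapdh, Eif3d, Tuba1a, Man1a, Col4a2, Cd34, Casp9, Dio2, Rnpep, Tril, Rbm3 and Bdnf. Of 30 splicing factors 13 fell (median -0.15), among them Pnisr (-0.38 ± 0.06) and Srsf5, with a median of -0.02 in mice 23 to 30 and a count of 8 without mouse 22. Of 20 very large ubiquitin ligases 9 fell, but 4 to 5 without mouse 4, 10, 29 or 30. Mycbp2, a ligase that acts in axons, was at -0.28 ± 0.08 over 30 mice and at 0.03 ± 0.07 in mice 23 to 30. Of 53 chromatin modifiers 15 fell (9 without mouse 10), with a median of -0.05 in mice 23 to 30. Beside the counts of splicing, ligase and chromatin genes stand 7.17% lower of all genes.

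The 12 genes that rose most, of those with a mean log2 CPM of 3 or more and 1 sign in both number ranges and both sleep arms, ran from Etnppl (0.84 ± 0.14) to Tnfaip6 (0.67 ± 0.16). Of these 12 the gap-junction gene Gjb6 is 1 of the listed astrocyte markers, and no other is on a glial list. Background knowledge also places Etnppl, the engulfment receptor Mertk and the deiodinase Dio2 in astrocytes. Mfsd2a, the lipid transporter of brain vessels, rose by 0.69 ± 0.08. Gjb6 was at 20.1, 31.1 and 53.0 CPM in NoCFC mice and 23.9, 47.1 and 76.9 CPM in CFC mice (0.70 ± 0.12, adjusted p = 0.00027). Gjb6 in mice 23 to 30 was at 30.9, 32.9, 32.2 and 53.0 CPM against 23.9, 37.3, 62.4 and 76.1 CPM, and CFC mouse 25 was the lowest of the 8. The effects of these 12 genes in mice 23 to 30 lay between 0.17 and 0.51, with no gene called and the groups overlapping for each.

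Over 30 mice 15 of 23 astrocyte, 7 of 20 oligodendrocyte and 10 of 19 microglial genes rose, beside 9.81% of all genes. On these lists 0 fell, and their medians were 0.33, 0.27 and 0.35. Their medians in mice 23 to 30 were 0.11, 0.11 and 0.07, with 0 called. Gja1 and Htra1 of astrocytes rose by 0.45 ± 0.11 and 0.57 ± 0.08, Tmem119 of microglia by 0.62 ± 0.11 and Mog of oligodendrocytes by 0.42 ± 0.13. When the mean log2 CPM of glial markers was added to the model, a choice made after seeing the data, 1182 genes rose (7.9%) and 478 fell (3.19%), and 1296 of the 2542 genes called without it were called in the same direction. With this term the ER list had 17 of 25 members higher (median 0.27), synaptic adhesion had 21 of 43, GABA receptors 9 of 14 and large cytoskeletal genes 13 of 32 lower. The proteasome had 7 of 31 lower, glycolysis 1 of 17 and translation factors 4 of 48. Astrocyte genes had 5 of 23 higher and microglial genes 2 of 19. The score is the mean of these same glial lists, so the drop in their own counts is built in and is no result. For mice 23 to 30 the term gave 7 genes higher (0.047%) and 0 lower (0%), 1 of them an ER gene.

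What the rising genes share was also read from the uncaptured RNA. The 14671 genes with a value were divided into 5 bins of like size by the ratio of membrane to cytosolic level in Input, which the CFC comparison does not use. In the bin with the highest ratio 934 of 2934 genes rose and 40 fell, with a median CFC effect of 0.16, and in the lowest bin 46 of 2935 rose and 206 fell (median -0.04). The medians of the bins from lowest to highest ratio were -0.04, -0.05, -0.05, 0.02 and 0.16. They were -0.03, -0.05, -0.06, 0.02 and 0.16 in mice 1 to 22, and -0.06, -0.05, -0.03, 0.03 and 0.14 in mice 23 to 30, which share no mouse with them. In cytosolic Camk2a libraries the median was 0.01 in the lowest bin and -0.01 in the highest over 30 mice, 0.00 and 0.03 in mice 1 to 22, and 0.03 and -0.12 in mice 23 to 30, so that the fall in the highest bin was seen in the later mice and not in the earlier ones. Membrane Input gave -0.03 and 0.08 in mice 23 to 30. By coding length the bin with the longest genes, of 2721, had 203 higher and 292 lower over 30 mice, and 254 higher and 22 lower in the comparison of number runs within NoCFC.

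**Figure D5:**
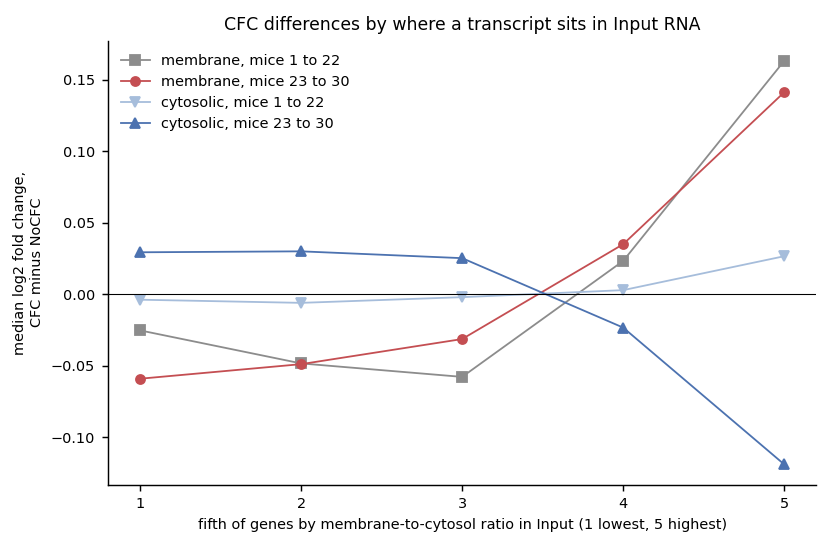
Median CFC effect (log2) in 5 bins of genes by membrane-to-cytosol ratio in Input, for membrane and cytosolic Camk2a libraries of mice 1 to 22 and of mice 23 to 30. The highest bin stands at 0.16 and 0.14 in the membrane libraries of the 2 mouse sets, and at 0.03 and -0.12 in the cytosolic ones.

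Whether the CFC effect differed between membrane-bound and cytosolic ribosomes was tested as an interaction over both kinds of library. Without regard to the mouse, 112 genes had a higher effect at the membrane (0.71%) and 105 a lower one (0.665%) of 15779. With the mouse as a block, since each homogenate was split into the fractions, there were 402 (2.55%) and 480 (3.04%). Scaling by relative log expression moved the split to 365 higher and 66 lower without the block. With the block, mice 23 to 30 had 458 higher (2.95%) and 26 lower (0.168%) of 15515, and 400 of those higher lay in the bin of genes with the highest membrane ratio. In that fit 17 of 43 synaptic adhesion genes, 12 of 25 ER genes, 10 of 31 secreted, 9 of 28 lysosomal and 8 of 21 pump genes had a higher effect at the membrane. Over 30 mice the blocked test called 1 of 43, 1 of 25, 2 of 31, 3 of 28 and 1 of 21 of them higher, so the counts of the later mice were not seen in the larger set. Among those called in mice 23 to 30 were Psap and Cpe (both 0.37), Canx at 0.40, Atp1b1 at 0.40 and Slc12a5 at 0.42, each with opposite signs in the 2 fractions of these mice. The genes with the smallest p were taken from the test over 30 mice without the block. Higher at the membrane were Tsc22d3 (0.51 ± 0.08), a glucocorticoid-induced leucine zipper, and Gm2a (0.45 ± 0.08), a lysosomal lipid activator. So were Ikbip (0.44 ± 0.08) and Rnf130 (0.42 ± 0.08), an E3 ligase. The lower ones were Snhg11 (-1.35 ± 0.20), Dync1h1 (-0.77 ± 0.12), Kalrn (-0.37 ± 0.07), a guanine nucleotide exchange factor of spines, and Akap8l (-0.40 ± 0.08).

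Against membrane Input the CFC effect differed less clearly. Without the block 0 of 16128 genes passed edgeR's test, with 1975 at an unadjusted p under 0.05. With the mouse as a block 269 were higher in the capture (1.67%) and 200 lower (1.24%), and in mice 23 to 30 with the block 0. Ddah1 (0.44 ± 0.10), L1cam (0.35 ± 0.05), Tril (0.50 ± 0.12) and Col4a2 (0.48 ± 0.10), a collagen of basement membranes, were higher in the blocked fit, and Malat1 (-1.22 ± 0.24), Psmb4 (-0.27 ± 0.05), Tuba1a (-0.22 ± 0.04) and Eif3h (-0.20 ± 0.04) lower. Tubulin genes are near-identical copies, so reads may be split among them. By list, 9 of 31 proteasome genes were lower in the capture, and 5 of 43 synaptic adhesion genes were higher.

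The 2 sleep arms were also tested apart. In sleeping mice 89 genes rose (0.595%) and 67 fell (0.448%), and in sleep-deprived mice 778 rose (5.2%) and 424 fell (2.83%) of 14968. DESeq2 called 258 higher and 127 lower in the Sleep arm. Training coincides with number run within each arm too (outside mice 23 to 30), and with a term for the run the arms had 1 and 0 genes higher and 0 lower. The arms share no mouse, but they share this confounding. Of the 778 genes that rose in the SD arm, 737 (94.7%) were above 0 in the Sleep arm, against 46.9% of all genes, and of the 424 that fell 399 (94.1%) were below 0. The test of the difference between arms, training by sleep, found 0 genes in either direction by edgeR, with 712 at an unadjusted p under 0.05. In the SD arm 10 ER, 13 astrocyte and 8 microglial genes rose, and in the Sleep arm 1, 1 and 0. Hspa5 was at 0.42 in the SD arm (adjusted p = 0.022) and at 0.27 in the Sleep arm (adjusted p = 0.2). Of the long noncoding genes 7 were lower in the SD arm and 9 in the Sleep arm. The genes with the smallest interaction p, none of which passed, included Smpdl3a (0.46 ± 0.13) and Itga6 (0.58 ± 0.17), and Rnpep (-0.36 ± 0.10) and Klhl22 (-0.25 ± 0.08), where a positive value is a larger CFC effect in SD.

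Of 47 genes switched on by neuronal activity 5 rose and 2 fell (median 0.03), shares near those of all genes (9.81% and 7.17%), and in mice 23 to 30 there were 31 of 45 above 0 (median 0.13). Fosb, an AP-1 factor, was at 1.81, 2.77 and 5.92 CPM in NoCFC mice and 3.09, 4.02 and 6.06 CPM in CFC mice, and 15 of 15 CFC mice were above their arm's NoCFC median (0.47 ± 0.11, adjusted p = 0.0046). Fosb in mice 23 to 30 was at 2.67, 1.84, 3.47 and 3.40 CPM against 4.11, 3.73, 6.06 and 5.29 CPM, with no overlap. Fosb also rose in the cytosolic capture, by 0.53 ± 0.11. Nptx2, a secreted pentraxin, rose by 0.31 ± 0.07 and Nr4a3 fell by 0.29 ± 0.06. Fos (-0.10 ± 0.19), Arc (0.00 ± 0.09), Npas4 (-0.40 ± 0.18) and Bdnf (0.03 ± 0.05) did not pass. Of 16 glucocorticoid targets 6 rose and 0 fell, among them Tsc22d3 (0.51 ± 0.07), the kinase Sgk1 (0.34 ± 0.09) and the receptor co-chaperone Fkbp5 (0.28 ± 0.06). In mice 23 to 30 none of the 16 was called, and 11 were above 0 (median 0.16). The cold-inducible Rbm3 and Cirbp fell by 0.28 ± 0.07 and 0.20 ± 0.05, and stood at -0.42 ± 0.12 and -0.30 ± 0.08 in mice 23 to 30.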

How the data were processed

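RNA-seq counts of 30 membrane (HA_PELL) libraries were compared, with cytosolic capture and membrane Input of the same mice for the interactions. Per the submitters' processing notes, the authors aligned reads with STAR 2.6.1a to GRCm38.p6 and counted them with featureCounts, and the deposited table holds these raw counts per gene. Libraries were made from small RNA amounts by SMART-seq v4 amplification, per the labels' protocols, with no molecular identifiers described, and the counting strand is not given in the sources used here. Groups came from the titles and characteristics.

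Genes were filtered by edgeR's filterByExpr, scaled by TMM and tested by edgeR 4.0.16 (R 4.3.3, limma 3.58.1, statmod 1.5.0) with the robust quasi-likelihood test, cell means of training by sleep and Benjamini-Hochberg adjustment at 0.05. Errors are SEs. Alternatives used DESeq2 1.42.0, limma-voom, other scaling, filters, terms and left-out mice. Tables and figures used Python 3.11.15, numpy 2.4.6 and pandas 2.3.3, and scripts were tested on simulated data. Positions and exon overlaps came from GENCODE vM21, and promoters from RefSeq.

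Named genes were the 12 largest changes in each direction among called genes at a mean log2 CPM of 3 or more with 1 sign in both number ranges and sleep arms, the 6 smallest p in each direction in mice 23 to 30, the 4 smallest p in each direction of each interaction (predicted genes passed over), list members by p, and Camk2a, Rpl22 and Rps6. Members and lists were chosen with earlier results of these data known. Same-numbered libraries came from 1 mouse: the median correlation of their residuals was 0.135 with the cytosolic capture and 0.17 with membrane Input, against -0.00822 and -0.00882 for different mice. The pairing was weaker with the cytosolic capture. There the same-numbered library was the best match for 13 of 30 mice (lowest correlation 0.024), against 27 of 30 in membrane Input (lowest 0.114). No 2 libraries of a group agreed within sampling noise (lowest chi-square per degree of freedom 5.13). The labels do not name separate litters or days. Some list members are counted in their lists but not reported by name here.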

Additional observations from a re-analysis of the deposited data

Results flagged for a closer look

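Of 168 groups of samples tested for a lone value, 6 held one, where chance gives about 1 in 20. In sleep-deprived NoCFC mice, mouse 28 had Mfsd2a at 19.13 CPM (others 9.054 to 13.25), Selenop at 69.19 CPM (others 34.84 to 48.98), Zcchc24 at 31.96 CPM (others 19.75 to 24.49) and Casp9 at 15.02 CPM (others 10.09 to 12.05). Among sleep-deprived CFC mice, mouse 19 had Lrrc45 at 10.87 CPM, with the others at 7.495 to 8.743. Among sleeping CFC mice, mouse 12 had Ski at 116.9 CPM, with the others at 155.7 to 178.6.

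The CFC effect differed between membrane-bound and cytosolic Camk2a ribosomes, by edgeR's interaction test without the mouse block, in 10 of 36 named genes, beside 0.71% of all genes higher and 0.665% lower. The 36 were named for their CFC effect in the membrane libraries, which the interaction also uses, so this count is a description and no support for a difference between fractions. It was higher at the membrane for Sdc4, by 0.92663, and Fam107a, by 0.6246. For the other genes the difference was below 0: Snhg11 at -1.3477, Meg3 at -1.0374, Dync1h1 at -0.77093, Wsb1 at -0.68788, Pabpn1 at -0.54324, Lrrc45 at -0.49226, Leng8 at -0.47468 and Sptb at -0.44949, all in log2 units.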

How the results depend on the processing

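Of 2542 genes called over 30 mice, 2507, 2542 and 2495 were also called in the same direction with scaling by relative log expression, DESeq2 and limma-voom. DESeq2 and limma-voom called more genes in all, 1660 and 1851 higher and 1197 and 1505 lower, beside 1469 and 1073. A term for the number run left 1 gene higher and 0 lower over 30 mice, 1 and 0 in the Sleep arm and 0 and 0 in the SD arm. Under this term Mycbp2, Malat1 and Miat turned to 0.03014, 0.01182 and 0.04501, and in mice 23 to 30 they stood at 0.0308, 0.01884 and 0.04564. A fold change of at least 1.2 left 674 higher and 293 lower. Without the filter on low counts 2083 were lower over 30 mice, with the median of all genes at -0.129 instead of -0.0101. The same setting gave 2136 lower in mice 1 to 22, 81 higher and 9 lower in mice 23 to 30, 149 and 192 in the Sleep arm, and 509 and 225 in the SD arm. The glial score, added after seeing the data, gave 478 lower over 30 mice, 565 lower in mice 1 to 22 and 7 higher in mice 23 to 30. In mice 23 to 30 DESeq2 gave 153 higher and 4 lower, the stricter filter 0 higher, an additive model 1 and all libraries with a run term 1. DESeq2 gave 258 higher and 127 lower in the Sleep arm, and the SD arm fitted alone gave 227 lower. Except where a value or construction shows it, the cause was not tested.

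Leaving out 1 mouse gave 1282 to 1660 higher and 793 to 1205 lower over 30 mice, and 0 to 6 higher and 0 to 1 lower in mice 23 to 30. Klf5 lost its call, with an adjusted p of up to 0.08165.

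No paired analysis was possible because the CFC and NoCFC groups share no mouse numbers. For the interactions, the replicate block gave 402 higher and 480 lower by fraction (365 and 66 by relative log expression without it), and 458 and 26 in mice 23 to 30, where Akap8l turned to 0.03167. By capture the block gave 269 higher and 200 lower, and relative log expression 4 lower. Totals had a median of 17.5 M counts in NoCFC and 18.6 M in CFC mice, and the 4 mice per group in 23 to 30 limit what can be called.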
